A study of Mus musculus with 12 samples.

Results

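The 12 RNA-seq libraries of embryonic mouse retina fell into a set of 5 with high and a set of 7 with low counts of mt-Nd6, the mRNA for 1 subunit of respiratory complex I. Members were chosen by that gene alone: a library was put in the high set where mt-Nd6 was above 100 CPM (reads of a gene per 1000000 counts of its library), and in the low set otherwise. The high set held wildtype male 5, mutant male 4, wildtype females 4 and 6, and mutant female 4. The low set held wildtype males 4 and 6, mutant males 5 and 6, wildtype female 5, and mutant females 5 and 6. Because the sets were cut on the values of these same libraries, every difference between them is given as a description. Genes past an adjusted p of 0.05 in edgeR's quasi-likelihood fit, with genotype as a term, are called marked, and nothing is rested on the mark.

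Each library came from a pool of 12 retinas taken from C57BL/6 embryos of several litters at E15.5, in mid to late gestation. Wildtype pools are labelled wild type, and mutant pools carried floxed alleles of Tbr2 together with Six3-Cre. Six3-Cre makes Cre recombinase in the developing eye field, so deletion was directed to the retina as it forms and not to 1 of its cell types. Tbr2 is listed as Eomes, which lay between 53.45 and 76.11 CPM in the wildtype and between 9.625 and 27.38 CPM in the mutant libraries. Males and females of each genotype had 3 libraries each, numbered 4 to 6. Every combination of sex and genotype had libraries in both sets, with 2 high and 1 low library among wildtype females and 1 high and 2 low libraries in each of the other groups. Pools of several litters are the replicates, so spread here is between pools and not between embryos.

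Mitochondrial DNA is a small circle read on both strands into long precursors, which are then cut into mRNAs, rRNAs and tRNAs. Most respiratory chain mRNAs come from the precursor named after the heavy strand, while mt-Nd6 is the mRNA cut from the oppositely directed precursor, whose noncoding stretches are rapidly degraded. The retina at this age holds dividing progenitors beside newborn ganglion, amacrine, horizontal and photoreceptor cells, and its neurons are known for a heavy demand on respiration.

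The sets differed across the genome along the base composition of transcripts. The first coding bases of 3 genes, picked near its ends, are shown. They were taken from the GENCODE M21 transcripts (mm10) and are printed 5′ to 3′ with G and C in capitals. mt-Nd6 (chrM:13921-14070, minus strand) had 31.3% G and C in its first 150 coding bases. Cenpk, a kinetochore protein gene marked as higher in the high set, had 32.7% (chr13:104230763-104232690, plus strand, joined over introns). H1fx, a linker histone gene marked as lower, had 68% (chr6:87981207-87981356, minus strand, within 1 exon). Other genes read this way lay closer together. Zfp758, Fut9 and Ccne2, marked as higher, had 42.7, 46.7 and 46.7%. Rpl29 and Gpsm3, marked as lower, had 51.3 and 61.3%.
mt-Nd6: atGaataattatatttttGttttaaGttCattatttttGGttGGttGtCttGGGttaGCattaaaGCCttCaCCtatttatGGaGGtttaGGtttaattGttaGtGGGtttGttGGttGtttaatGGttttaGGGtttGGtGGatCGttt
Cenpk: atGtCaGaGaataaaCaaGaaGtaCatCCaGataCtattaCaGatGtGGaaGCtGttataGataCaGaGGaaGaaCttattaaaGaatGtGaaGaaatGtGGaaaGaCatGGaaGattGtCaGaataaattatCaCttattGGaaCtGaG
H1fx: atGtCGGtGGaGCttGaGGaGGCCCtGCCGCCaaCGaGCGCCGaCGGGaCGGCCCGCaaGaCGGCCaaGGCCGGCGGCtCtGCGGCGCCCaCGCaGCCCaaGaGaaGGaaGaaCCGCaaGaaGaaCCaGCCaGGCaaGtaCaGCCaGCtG

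mt-Nd6 (chrM:13552-14070, minus strand) stood at 418.6 CPM in wildtype male 5, 374.5 in mutant male 4, 381.1 in wildtype female 4, 372.9 in wildtype female 6 and 483.9 in mutant female 4. In the low set it stood at 21.26 CPM in wildtype male 4, 9.696 in wildtype male 6, 13.92 in mutant male 5, 30.14 in mutant male 6, 48.37 in wildtype female 5, 18.37 in mutant female 5 and 18.98 in mutant female 6. The libraries next to the threshold of 100 CPM were wildtype female 6 above it, at 372.9 CPM, and wildtype female 5 below it, at 48.37 CPM. The means were 406.2 ± 47.26 CPM (SD, n = 5) and 22.96 ± 12.87 CPM (SD, n = 7), a ratio of 17.7. Low libraries still held 231 to 952 reads of the gene, so counting error was small against this gap. Whether the counting used strand is not given in the sources used here, so reads from mt-Nd6 and from the opposite strand at the same place cannot be told apart.

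The other mRNAs of the mitochondrial genome, read from the heavy-strand precursor, were also higher in the high set. Their ratios were far smaller than that of mt-Nd6, except for mt-Nd3, whose low libraries held 1 to 3 reads each. Of 11 tested, 9 were marked as higher and 0 as lower, against 13.2% of all 15023 tested genes marked as higher and 3.46% marked as lower. The sets did not overlap for 8 of the 11, against 9.61% of all genes with the high set entirely above and 6.52% with it entirely below. Their median log2 difference (high minus low) was 1.07, against -0.02 over all tested genes. It was 0.98 in females and 1.24 in males. Together they took 1.293 to 1.558% of counts in the high and 0.3720 to 1.095% in the low libraries.

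The complex I subunit mRNAs mt-Nd1 and mt-Nd2 were far apart. mt-Nd1 stood at 2085, 2025, 2054, 2030 and 2398 CPM in the high libraries, in the order given for mt-Nd6. In the low libraries, again in that order, it stood at 771.5, 696.3, 686.0, 569.2, 1125, 895.6 and 835.0 CPM. The high libraries lay close together and mutant female 4 was the highest, while wildtype female 5 was the highest of the low ones. The means were 2118 ± 158.2 and 797.0 ± 179.8 CPM (SD, n = 5 and 7), a ratio of 2.66 and a log2 difference of 1.45 (SE 0.13). mt-Nd2 ranged from 956.4 to 1171 CPM and from 73.19 to 419.6 CPM, a log2 difference of 1.99 (SE 0.28). mt-Nd4 had a ratio of means of 1.95, and mt-Nd5 was 0.87 (SE 0.25) higher on the log2 scale. Without mutant female 4 mt-Nd5 was 0.74 higher and lost its mark, and without mutant male 4 it was 0.89 higher and lost it too.

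mt-Cytb and mt-Co1, of complexes III and IV, had the smallest log2 differences of the 11. mt-Cytb, the cytochrome b mRNA, had a log2 difference of 0.55 (SE 0.17) with overlapping sets. It kept its mark without 4 of the 12 libraries and ranged from 0.43 without mutant female 4 to 0.59 without wildtype female 6 where it lost it. mt-Co1, the catalytic subunit of cytochrome oxidase, lay between 4924 and 5814 CPM and between 1618 and 5062 CPM, which overlap, and had no mark at 0.50 (SE 0.18). It took the mark without mutant male 6, at 0.38, or without mutant female 6, at 0.57. The other members, mt-Co2, mt-Co3, mt-Atp6, mt-Nd3 and mt-Nd4l, had 98.0 to 100% of their 50-base windows in other genes. For mt-Nd4 the share was 62.2% and for mt-Co1 51.1%. Nuclear copies are described below.

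Mutant male 6 departed from the order that mt-Nd6 gave. It was the lowest of all libraries in mt-Nd1, mt-Nd2, mt-Nd4, mt-Nd5, mt-Cytb and mt-Co1, yet the second highest of the low set in mt-Nd6. Its mt-Nd5 stood at 285.1 CPM, below the other low libraries at 914.4 to 1290 CPM. Wildtype female 5 was the highest low library in mt-Nd6, mt-Nd1, mt-Nd2, mt-Nd4, mt-Cytb and mt-Co1. The mitochondrial rRNAs and tRNAs had no listed gene and were not analysed here.

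**Figure D1:**
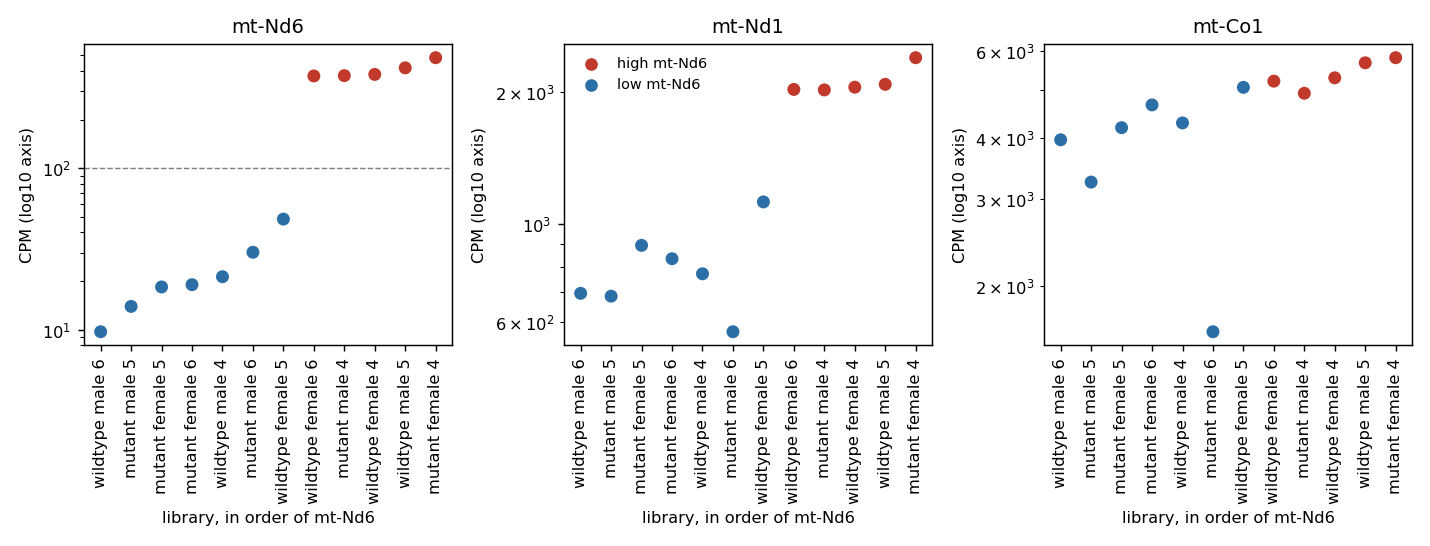
CPM of mt-Nd6, mt-Nd1 and mt-Co1 on log10 axes, 1 point per library, with the libraries in order of their mt-Nd6 and the dashed line at 100 CPM. The sets are far apart for mt-Nd6 (the rule) and for mt-Nd1, and meet for mt-Co1, where mutant male 6 stands lowest at 1618 CPM.

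Nuclear copies of mitochondrial sequence on chromosome 1 were also higher in the high set. Clone RP23-8J15 carries 7 listed genes, picked out with their values known, and the 6 that were tested copy stretches of mitochondrial DNA. Of these 6, 5 were marked as higher (83.3%) and 0 as lower, where all tested genes had 13.2% and 3.46%. Their summed level was 79.87 to 98.25 CPM in the high and 10.75 to 37.09 CPM in the low libraries. RP23-8J15.5 (chr1:24612775-24613119, minus strand) is identical to mt-Nd3 at 344 of 345 aligned bases. Their first 120 aligned bases (chrM:9459-9578, plus strand, and chr1:24613000-24613119, minus strand; GENCODE M21 transcripts on mm10) are printed 5′ to 3′ to show how little separates the pair, with the differing base in capitals.
mt-Nd3: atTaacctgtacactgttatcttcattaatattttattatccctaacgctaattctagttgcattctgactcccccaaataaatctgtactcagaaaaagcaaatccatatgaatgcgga
RP23-8J15.5: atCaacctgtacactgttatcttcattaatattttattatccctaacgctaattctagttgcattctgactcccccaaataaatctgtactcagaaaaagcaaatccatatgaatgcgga

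RP23-8J15.5 stood at 20.04, 15.68, 18.62, 15.38 and 17.43 CPM in the high libraries. It stood at 0.2599, 0.6296, 0.7244, 1.242, 0.9653, 0.7264 and 0.9708 CPM in the low libraries. Every high library was above every low one, and the log2 difference was 4.53 (SE 0.21). mt-Nd3 itself ranged from 1.448 to 2.351 CPM and from 0.04197 to 0.1620 CPM, and the low values rest on 1 to 3 reads a library. Its fitted log2 difference was 4.39 (SE 0.29), close to that of the copy. RP23-8J15.7, a copy of part of mt-Nd4, was 3.54 (SE 0.32) higher where mt-Nd4 was 1.95 times as high. RP23-8J15.3, a copy of mt-Atp6, was 2.17 (SE 0.24) higher where mt-Atp6 was 1.45 (SE 0.26) higher. The other 3 lay near the genes they resemble: RP23-8J15.2 at 0.96 and mt-Co2 at 1.07, RP23-8J15.4 at 1.22 and mt-Co3 at 1.08, and RP23-8J15.1 at 0.65 and mt-Co1 at 0.50. Only reads that span a difference can be placed on 1 gene of such a pair, so how the counts divide within each pair is uncertain. mt-Nd1, mt-Nd6 and mt-Cytb shared no 50-base window with any annotated gene of another locus. For these genes, shorter matches and sequence outside the annotated transcripts were not searched.

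Beyond the mitochondrion, transcripts poor in G and C were higher and those rich in G and C lower in the high set. The GC content of the longest GENCODE M21 transcript had a Spearman correlation of -0.735 with the log2 difference across 14934 genes (a description: genes share the same libraries and are not independent). It was -0.603 in the 6 female and -0.712 in the 6 male libraries, which have no library in common. In the 1494 genes of lowest GC (31.0 to 41.4%), 922 were marked as higher (61.7%) and 1 as lower, with a median log2 difference of 0.50. In the genes of highest GC (58.0 to 73.1%), 4 were marked as higher and 204 as lower (13.7%), with a median of -0.20. Of all tested genes 13.2% were marked as higher and 3.46% as lower. The low-GC genes made up 10.44 to 10.98% of counts in the high and 5.418 to 8.753% in the low libraries. The high-GC genes made up 8.577 to 9.798% and 10.18 to 13.15%. Both ranges were free of overlap, with mutant male 6 at the far end of the low set and wildtype female 5 nearest the high set.

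**Figure D2:**
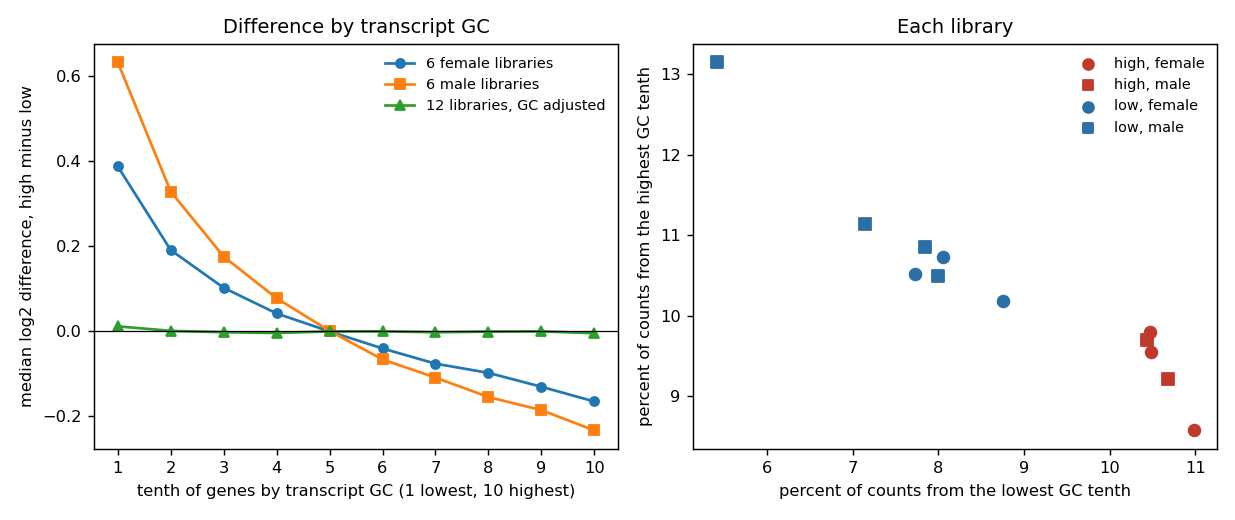
Left: median log2 difference, high minus low, in 10 equal groups of genes ordered by transcript GC, for the 6 female libraries, the 6 male libraries and all 12 after GC adjustment. Right: percent of each library's counts from the lowest and the highest GC group; the 5 high libraries sit at 10.44 to 10.98% on the x axis and mutant male 6 at 5.418%.

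Weighted by counts, the transcripts of the high libraries had 49.29 to 49.59% G and C and those of the low libraries 49.95 to 51.20%. Without the mitochondrial genes the ranges were 49.47 to 49.75% and 50.08 to 51.25%, so nuclear transcripts showed the shift by themselves. Length moved with the difference less, at a Spearman correlation of 0.219 over 15023 genes. Among genes of middle GC, 25 of the 1493 shorter genes were marked as higher and 37 as lower (1.67% and 2.48%). Of the 1493 longer ones 28 were marked as higher and 14 as lower (1.88% and 0.938%). All tested genes had 13.2% and 3.46%. An added fit removed each library's trend with GC before the test, chosen after the gradient was seen. It marked 463 genes as higher and 361 as lower (3.08% and 2.40%), and its correlation with GC was -0.0129. Of the 1977 genes marked as higher without it, 452 kept the mark, and of the 520 marked as lower, 43 did. Values from that fit are called GC-adjusted below. mt-Nd1 was 0.78 higher after GC adjustment, mt-Nd2 1.19 and RP23-8J15.5 3.50, while mt-Nd4 was at 0.16 with no mark, mt-Cytb at 0.01 and mt-Co1 at 0.04. What part transcript base composition, RNA quality or library preparation had in the gap was not tested.

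Most differences were small. The 1977 genes marked as higher had a median log2 difference of 0.45, and 181 of them (9.16%) reached 2-fold. The 520 marked as lower had a median of -0.26, and 29 (5.58%) reached 2-fold. The share of marks that were higher depended on scaling in edgeR: it was 79.2% with TMM factors, 74.1% with RLE factors and 50.1% with library totals, which moved the median of all genes to -0.06. DESeq2, which changes the test as well, gave 64.4%. The count of lower genes also rested on single libraries, from 92 without mutant female 4 to 1051 without mutant male 6. It was 140 without wildtype male 6, 165 without mutant male 4, 243 without wildtype female 4 and 327 without mutant male 5.

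The difference ran the same way in both sexes and both genotypes for 1975 of the 1977 genes marked as higher and 517 of the 520 marked as lower, in subsets of the same libraries that made the marks. Females alone gave 1185 higher and 140 lower marks (7.92% and 0.936% of 14955 genes), and males alone gave 490 and 16 (3.19% and 0.104% of 15341). Of the higher genes 453 were marked in both sexes, which is 38.2% of the female and 92.4% of the male list. Wildtype libraries alone gave 1379 higher and 235 lower marks and mutants alone 772 and 46. The interaction of set with genotype had 0 calls in edgeR with 1003 genes at an unadjusted p under 0.05, and that of set with sex had 0 calls with 301 genes. DESeq2 and limma voom also gave 0 for each, as did edgeR without mutant male 6. A count of 0 does not show that the difference was equal between genotypes or sexes.

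Zinc finger genes, mostly DNA-binding repressors with a KRAB domain that silence repeats, held many of the largest differences. Of 335 tested genes named Zfp, 103 were marked as higher (30.7%) and 6 as lower (1.79%), beside 13.2% and 3.46% of all tested genes. The median log2 difference was 0.14 and 0.03 after GC adjustment, against -0.02 and 0.00 over all genes. Their summed level was 13811 to 13935 CPM in the high and 12282 to 13162 CPM in the low libraries, without overlap. The marked members clustered by location. On chromosome 17, 27 of 42 were marked as higher (median 0.85) and on chromosome 13, 22 of 32 (median 0.75). On chromosome 7, which carries more of them, 10 of 82 were marked as higher and 2 as lower (median -0.02). Median transcript GC was 39.45% and 39.63% on chromosomes 17 and 13 and 48.64% on chromosome 7. Among all genes of the lowest GC group, 82 of 106 zinc finger genes were marked as higher (77.4%, median 0.74) and 840 of 1388 other genes (60.5%, median 0.48). After GC adjustment these medians were 0.19 and 0.00.

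Zfp942 (chr17:21926960-21962464, minus strand) stood at 22.66, 19.25, 19.98, 19.33 and 19.38 CPM in the high libraries. It stood at 5.978, 4.239, 4.036, 4.105, 6.300, 4.316 and 4.563 CPM in the low libraries. Each set was narrow and nothing lay between them, with a log2 difference of 2.08 (SE 0.11), or 1.38 after GC adjustment. Its neighbour Zfp943 was 2.06 (SE 0.13) higher and Zfp758, also on chromosome 17, 2.44 (SE 0.16). Zfp758 ranged from 11.53 to 14.26 CPM and from 1.836 to 3.415 CPM. Zfp934 and Zfp825 on chromosome 13 were 2.11 (SE 0.21) and 1.94 (SE 0.26) higher. Between 2.03 and 30.9% of the 50-base windows of these 5 genes recurred in other annotated genes. Zfp960 shared 82.7% of its windows, so its log2 difference of 2.04 (SE 0.40) is uncertain. Zfp947 ranged from 2.105 to 3.047 CPM and from 0 to 0.9145 CPM.

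Other protein-coding genes with the largest differences included a kinetochore protein, a fucosyltransferase and a secreted matrix protein. Cenpk, a kinetochore protein that helps hold chromosomes to the spindle, ranged from 16.60 to 18.92 CPM and from 3.312 to 6.910 CPM. Its log2 difference was 2.03 (SE 0.16), 1.63 in females and 2.35 in males. Fut9, the fucosyltransferase that makes the Lewis X sugar of neural progenitors, ranged from 11.27 to 12.96 CPM and from 1.782 to 4.572 CPM (1.91, SE 0.18). Itgbl1, a secreted protein with integrin-like repeats, ranged from 2.430 to 4.745 CPM and from 0 to 1.270 CPM. Among noncoding genes, Gm17066 (chr14:105109390-105114676) ranged from 8.391 to 10.15 CPM and from 0.1942 to 0.9182 CPM, a log2 difference of 4.54 (SE 0.25). It shared no window with another annotated gene. Znf41-ps, a zinc finger pseudogene that shares 89.6% of its windows, ranged from 1.948 to 3.726 CPM and from 0 to 0.2032 CPM.

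Eid1, singled out with its values known, differed strongly before and after GC adjustment. It encodes an inhibitor of the histone acetyltransferases p300 and CBP. It stood at 182.0, 185.6, 182.2, 185.2 and 180.4 CPM in the high libraries and at 70.54, 67.16, 49.41, 39.32, 83.58, 61.58 and 68.73 CPM in the low libraries. The high libraries agreed closely while the low ones spread, with mutant male 6 lowest. The log2 difference was 1.56 (SE 0.12) and remained 1.44 after GC adjustment. Its transcript has 45.6% G and C, below the median of 49.83% over all tested genes. No window of Eid1 was shared with another annotated gene.

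Several regulators of RNA processing were higher in the high set. Of 26 SR proteins and CLK kinases, which choose splice sites and phosphorylate those factors, 11 were marked as higher and 0 as lower (13.2% and 3.46% of all tested genes). Their median log2 difference was 0.24 and 0.00 after GC adjustment. Srsf1 was 0.87 (SE 0.10) higher, Srsf10 0.79 (SE 0.12) and Luc7l2, a component of the U1 particle, 0.73 (SE 0.06). Srsf2 ranged from 202.5 to 218.3 CPM and from 112.9 to 153.9 CPM. Its GC content is near the 49.83% median of all tested genes, and it was 0.64 (SE 0.06) higher before and 0.66 after adjustment. Of 31 genes of polyadenylation and mRNA decay, 10 were marked as higher and 0 as lower (median 0.11). They included Cpsf6, a cleavage factor, at 0.73 (0.12 after adjustment) and Cnot7, a deadenylase, at 0.78 (0.16 after adjustment). In contrast 3 of 25 core spliceosome genes were marked as higher and 2 as lower, with a median of -0.03. Sf3b1, of the branch-site complex, was 0.30 higher with a mark that 9 of the 12 leave-out fits did not keep.

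Factors of histone transcription and 3′ end processing had 5 of 13 marked as higher and 1 as lower (38.5% and 7.69%, beside 13.2% and 3.46% of all tested genes). Npat, which drives histone transcription in S phase, was 0.50 higher (0.05 after adjustment). Casp8ap2, which works with it, was 0.58 higher (0.20 after adjustment), or 0.49 and unmarked without mutant female 4. The replication-dependent histones themselves, whose mRNAs end in a stem-loop instead of a poly(A) tail, had 0 of 48 marked as higher and 1 as lower (2.08%). Their median was -0.21 at a median GC of 56.84%, and -0.09 after adjustment. Hist3h2ba, an H2B gene, was at -0.21 without a mark. It took the mark without mutant female 5, at -0.23, or mutant male 6, at -0.19. H1fx, the linker histone shown above at 71.3% G and C over its transcript, ranged from 111.3 to 142.1 CPM and from 142.8 to 217.4 CPM (-0.40, SE 0.10). Its mark was lost without mutant female 4, at -0.34, or without mutant male 4, at -0.36. H3f3b, a variant histone made outside S phase, was 0.25 higher.

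The lists of chromatin regulators, translation factors and nuclear long noncoding RNAs had shares of higher marks close to the 13.2% of all tested genes. Of 35 chromatin regulators 5 were marked as higher and 0 as lower (median 0.10), with Med13, of the Mediator kinase module, at 0.75 and the remodeller Atrx at 0.68. Of 13 nuclear long noncoding RNAs 2 were marked as higher. Tug1 was 0.55 higher and at -0.09 after GC adjustment. Of 30 translation factors 4 were marked as higher, among them Eif2s2, an initiation factor subunit, at 0.41. It was at -0.18 after adjustment, and unmarked at 0.34 without mutant female 4. The proteasome had 2 of 35 marked in each direction. Psmc6, an ATPase of its cap, was 0.40 higher and -0.33 after adjustment, and unmarked at 0.38 without mutant female 4 or 0.34 without mutant male 4. By biotype, 16 of 375 lincRNAs were marked as higher and 1 as lower, 4 of 224 antisense transcripts and 1, and 23 of 391 pseudogenes and 27.

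Among cell cycle and stress lists, mitosis and p53 targets had 18.2% and 18.8% of genes marked as higher, against 13.2% of all tested genes, and the other lists had less than that. Of 25 genes of S phase 2 were marked as higher and 2 as lower, and of 22 genes of mitosis 4 and 0. Ccne2, the cyclin of S phase entry, ranged from 26.53 to 35.13 CPM and from 6.913 to 19.05 CPM, a log2 difference of 1.19 (SE 0.17). Pola1, the polymerase that starts each new DNA strand, was 0.45 higher. E2f1, a transcription factor of S phase, was at -0.24 and Cdt1, which licenses origins, at -0.21. Pola1 and E2f1 lost their marks without mutant female 4 (0.38 and -0.19) or mutant male 4 (0.46 and -0.22), and Cdt1 in 9 of the 12 leave-out fits. Of 16 genes of p53 targets and cell death 3 were marked as higher, with Trp53inp1 at 0.96 (SE 0.09). Of 16 genes of endoplasmic reticulum stress 1 was marked in each direction, with a median of -0.16 (-0.12 after GC adjustment). Of this list 4 genes lay above 0, among them the chaperone Dnajb9 at 0.61, and 12 below. Of 21 chaperones, 16 immediate early genes and 21 genes of hypoxia and glycolysis, 1 each was marked as higher and 0 as lower. Their medians were -0.02, -0.15 and -0.09. Of the immediate early genes 3 lay above 0 and 13 below, and the median was -0.01 after GC adjustment. The summed level of that list was 689.9 to 749.7 CPM in the high and 761.5 to 983.0 CPM in the low libraries, without overlap.

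Among retinal cell type genes, single members such as Neurod1 and Neurod4 were far apart between the sets. In pooled retina, fewer cells of a type and less RNA per cell cannot be told apart. Median log2 differences were -0.03 for 15 progenitor, -0.12 for 15 neurogenic, -0.01 for 21 ganglion cell, -0.09 for 16 amacrine and horizontal and -0.04 for 10 photoreceptor genes, against -0.02 over all genes. Marked as higher were 3, 3, 6, 1 and 1 of them, with 0 marked as lower in each, beside 13.2% and 3.46% of all tested genes. In the same order, 5, 4, 10, 7 and 5 lay above 0 and 10, 11, 11, 9 and 5 below. Most progenitor and neurogenic genes thus lay below 0, unlike the members of these lists that are named. Neurod1, a factor of photoreceptor and amacrine precursors, stood at 97.05, 92.64, 90.31, 106.6 and 81.57 CPM in the high libraries. In the low libraries it stood at 49.38, 53.98, 53.09, 54.07, 50.55, 59.57 and 48.49 CPM. The sets did not touch, and the log2 difference was 0.86 (SE 0.07), or 0.64 after GC adjustment. Neurod4, a related factor of the same cells, ranged from 91.24 to 111.3 CPM and from 25.33 to 58.24 CPM (1.06, SE 0.15; 0.43 after adjustment).

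Among ganglion cell genes, the neuronal RNA-binding protein Elavl4 ranged from 251.9 to 289.5 CPM and from 132.4 to 177.0 CPM, a log2 difference of 0.91 (SE 0.07) and 0.33 after adjustment. Ebf1, a factor of ganglion cell differentiation, was 0.26 higher and at 0.00 after adjustment. Six6, a progenitor factor of the eye field, was 0.32 higher (0.10 after adjustment). Gadd45a, of growth arrest and the neurogenic list, was 0.43 higher and 0.45 after adjustment, and lost its mark without mutant female 4, at 0.36. The 56 potassium channel genes had 5 marked as higher (8.93%) and 1 as lower. The 25 synaptic release genes had 4 marked as higher (16.0%) and 1 as lower. All tested genes had 13.2% and 3.46%. Most members of both lists lay the other way. Differences were positive for 20 and negative for 36 channel genes (median -0.09), and positive for 10 and negative for 15 synaptic genes (median -0.08). The median over all tested genes was -0.02. The vesicle protein Syt4 led the marked synaptic genes at 0.80 (SE 0.07).

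The marks of ribosomal and nuclear respiratory genes were mostly lower ones. Of 82 cytoplasmic ribosomal protein genes 0 were marked as higher and 13 as lower (13.2% and 3.46% of all tested genes), with a median of -0.11 (-0.06 after GC adjustment). They took 4.341 to 4.706% of counts in the high and 4.829 to 5.338% in the low libraries. Rpl29, of the large subunit, ranged from 136.2 to 157.8 CPM and from 179.1 to 203.6 CPM (-0.39, SE 0.05; -0.19 after adjustment). Rps12 has 45.2% G and C and was at -0.20, or -0.34 after adjustment. Rps12 lost its mark without mutant male 4, at -0.19, or wildtype male 6, at -0.18.

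Nuclear subunits of the respiratory chain, which assemble with the mitochondrial ones, had 1 of 80 marked as higher and 9 as lower (1.25% and 11.2%). All tested genes had 13.2% and 3.46%. These subunits had a median of -0.08 and took 0.7767 to 0.8211% and 0.8269 to 0.8973% of counts. Cox6a1 of complex IV was at -0.25, and Ndufa13 and Ndufa7 of complex I at -0.26 and -0.23. Ndufa7, at 49.4% G and C, was at -0.23 after adjustment too, and lost its mark without mutant female 4 (-0.19) or wildtype male 6 (-0.20). The proteins of the mitochondrial ribosome had 1 of 76 marked as higher and 4 as lower. The nuclear genes for mitochondrial RNA synthesis and decay had 3 of 28 marked as higher and 2 as lower, with a median of 0.05. Trmt10c, of the enzyme that cuts mitochondrial tRNA 5′ ends, was 0.41 higher and Elac2, which cuts their 3′ ends, was at -0.20. Leaving out 1 library ended the mark of Trmt10c in 7 of 12 fits and of Elac2 in 8 of 12.

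**Figure D3:**
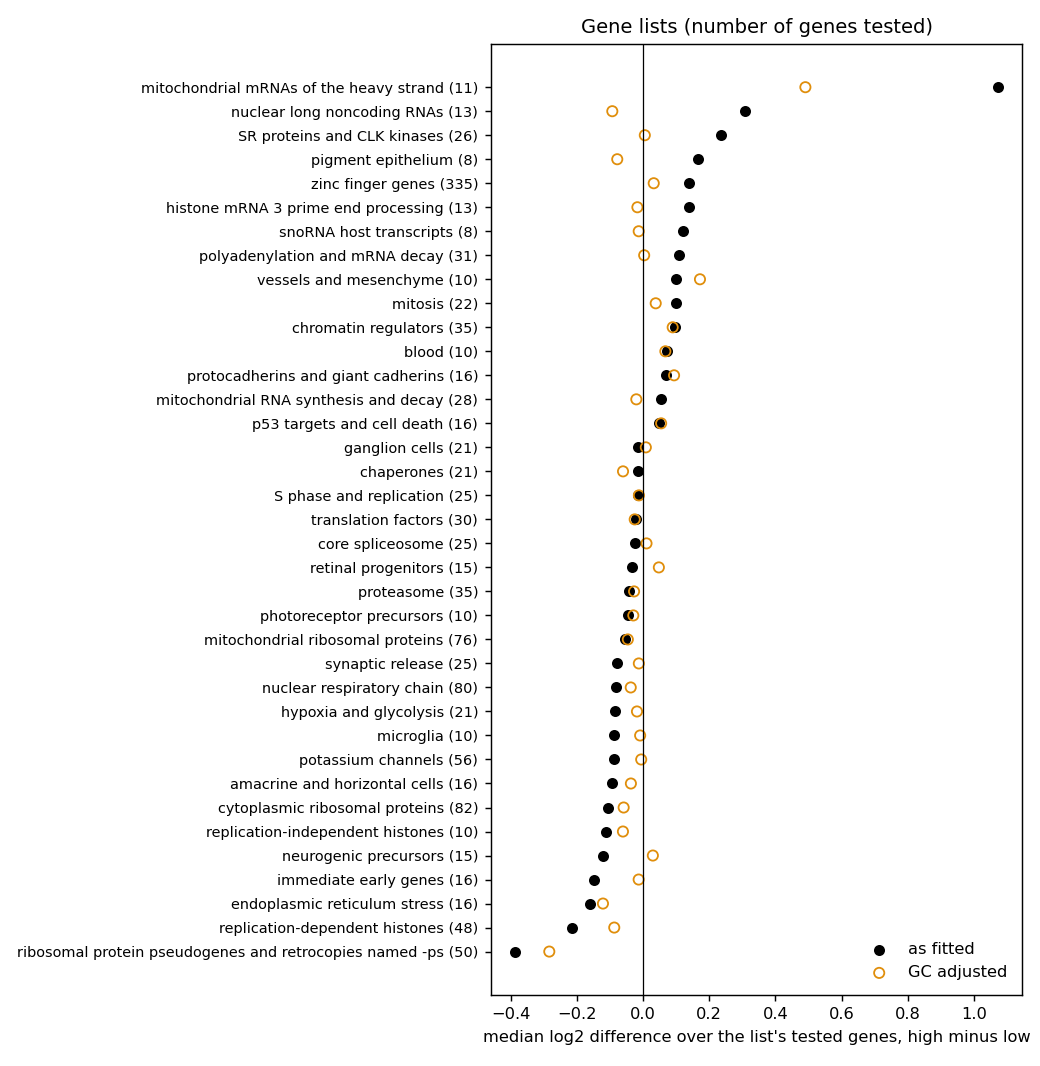
Median log2 difference, high minus low, over the tested genes of each list, as fitted (filled) and after GC adjustment (open), with the number of genes tested. Mitochondrial mRNAs of the heavy strand lie at 1.07 and 0.49, and copies of ribosomal protein genes lie lowest at -0.39 and -0.28; the lens list, whose level varied most between libraries, is not drawn.

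The genes furthest below 0 were retrocopies of ribosomal protein genes, intronless duplicates that resemble a source gene. Of 50 tested genes named as ribosomal protein pseudogenes (-ps), a group formed with their values known, 2 were marked as higher and 17 as lower. Their median was -0.39, with -0.34 in females and -0.41 in males. Of the 33 source genes tested, 6 were marked as lower and 0 as higher, with a median of -0.10. Of all tested genes 3.46% were marked as lower and 13.2% as higher. Of the 50 copies 31 had no mark, and several of these lay close to their source gene. The 2 marked as higher were Rps13-ps1 at 0.82, beside Rps13 at -0.19, and Rps15a-ps7 at 0.81, beside Rps15a at -0.02. Pairs with copies marked as lower are described next.

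The pairs below show how alike the sequences are (GENCODE M21 transcripts, mm10, 5′ to 3′, 120 aligned bases each, differing bases in capitals). Rps18-ps3 (chr8:107263030-107263149, minus strand) matches Rps18 (chr17:33952475-33953742, minus strand, joined over introns) at 354 of 357 aligned bases. Gm14303 (chr2:172509568-172509687, minus strand) matches Rps29 at all 158 aligned bases, so its 120 bases are printed once for both.
Rps18-ps3: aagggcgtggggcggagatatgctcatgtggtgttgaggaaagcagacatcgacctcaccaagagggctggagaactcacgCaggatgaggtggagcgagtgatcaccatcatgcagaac
Rps18: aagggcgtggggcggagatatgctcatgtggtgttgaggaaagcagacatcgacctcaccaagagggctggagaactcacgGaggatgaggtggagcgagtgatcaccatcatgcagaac
Gm14303: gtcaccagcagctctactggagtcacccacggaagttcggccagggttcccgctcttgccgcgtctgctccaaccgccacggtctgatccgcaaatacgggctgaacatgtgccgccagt

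Gm14303 stood at 2.579, 3.050, 2.881, 1.898 and 4.214 CPM in the high libraries. It stood at 36.80, 37.19, 48.85, 48.39, 27.23, 33.42 and 44.61 CPM in the low libraries. Each low library was far above each high one, with a log2 difference of -3.63 (SE 0.15), while Rps29 was at -0.15 without a mark. Rps18-ps3 was at -2.71 (SE 0.28) and Rps18 at -0.10. Rpl9-ps6 ranged from 1.625 to 2.248 CPM and from 9.402 to 15.72 CPM (-2.59, SE 0.17), while Rpl9 was at -0.01. Rpl7a-ps5 was at -2.81 (SE 0.25) and Rpl7a at -0.19. Gm10443 also lay far below Rps28 (-2.12 and -0.35), Rps13-ps2 below Rps13 (-1.72 and -0.19) and Rps27rt below Rps27 (-1.47 and 0.13). Rps13 was itself marked as lower. Gm9385, a copy of Rpl24, was at -2.10.

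**Figure D4:**
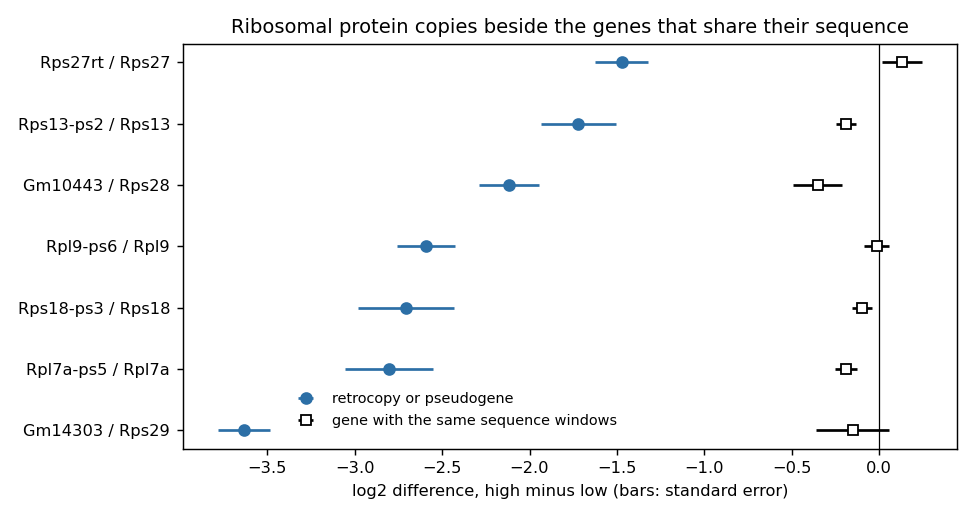
Log2 difference, high minus low, of 7 ribosomal protein copies marked as lower (filled circles) and the source genes that share their sequence windows (open squares). Bars give the standard error of the edgeR fit. All 7 copies lie at or below -1.47, and their source genes lie between -0.35 and 0.13.

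Genes that share sequence moved in both directions. After GC adjustment, 10.9% of the 450 genes with over 50% of their 50-base windows found in annotated genes of other loci were marked. The share was 9.85% of 731 genes with 10 to 50% shared, 7.24% of 5219 with up to 10%, and 3.68% of 8534 with none. In the first group 36 marked genes reached 2-fold, 18 higher and 18 lower. In the last group 10 did, and all were higher. Without the adjustment, 23 of the 29 genes marked as lower by at least 2-fold had over 50% of their windows shared. Gm7846, with 77.8% shared and most of those windows in Lsm5, was 3.11 (SE 0.35) higher where Lsm5 was 0.98 higher. Genes with over 50% shared had a median level of 1.92 CPM, against 22.79 CPM in those with none, so their values rest on fewer reads. The counts of such pairs depend on how reads with several matches were treated, which is not given in the sources used here.

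The largest named genes marked as lower that shared no window differed by less than 2-fold. Tmem88, an inhibitor of Wnt signalling, ranged from 0.9973 to 1.716 CPM and from 1.942 to 3.619 CPM (-0.81, SE 0.22). Gpsm3, a regulator of G protein signalling, was at -0.71 (SE 0.17) and Col11a2, a fibrillar collagen chain, at -0.62 (SE 0.16). Their transcripts had 55.6, 59.4 and 62.9% G and C, and none kept its mark after adjustment. Tmem88 was at -0.76 and unmarked without mutant female 4, and Gpsm3 at -0.61 without mutant male 4.

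Markers of other eye tissues overlapped between the sets. Summed lens markers were 11.34 to 873.3 CPM in the high and 5.563 to 2111 CPM in the low libraries, and 8 of the 15 listed members were at 0 in some library. Blood markers were 294.0 to 656.4 and 347.8 to 573.7 CPM, and pigment epithelium 32.67 to 36.29 and 27.74 to 43.51 CPM. Vessels and mesenchyme were 262.7 to 288.1 and 254.2 to 293.9 CPM, microglia 55.49 to 59.09 and 53.91 to 75.83 CPM, and surface ectoderm 10.67 to 12.34 and 7.435 to 15.83 CPM. The ranges of the sets overlapped for all 6 lists, and 0 of their tested members were marked except 1 higher and 1 lower in pigment epithelium. Of all tested genes 13.2% were marked as higher and 3.46% as lower. Library totals ran from 18514607 to 27072825 counts, with means of 23244047 in the high and 20655240 in the low set (exact two-sided permutation p = 0.114, Benjamini-Hochberg 0.159 over 3 measures). Genes with at least 1 count averaged 18529 and 17949, a difference of 579.8 (exact permutation p = 0.00758, adjusted 0.0227, smallest possible 0.00253). For genes with at least 5 counts the difference was 204.0 (exact permutation p = 0.159, adjusted 0.159). Depth and genes detected were not used by the rule, and their part in the differences was not tested.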

How the data were processed

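RNA was measured by RNA-seq in 12 libraries of E15.5 mouse retina, each from a pool of 12 retinas. The authors deposited whole-number read counts per gene and library, with no normalization per the file headers. The submitters' processing notes name CASAVA, STAR 2.5 (alignment), HTSeq 0.6.1 (counting per gene), DESeq2 (the authors' comparisons) and the build mm10. Annotation release, read length, strand setting and treatment of reads with several matches were not given in the sources used here. The table of both sexes (19954 genes) was used. The tables of 1 sex held the same counts for shared genes, with 0 values that differed. Library totals were 18514607 to 27072825 counts.

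CPM is a count over the library's total, without further scaling. Counts were fitted with edgeR 4.0.16 in R 4.3.3 (TMM factors, filterByExpr by set, quasi-likelihood test, two-sided, Benjamini-Hochberg at 0.05, genotype as a term), leaving out mt-Nd6. The standard error of a log2 difference restates that test. DESeq2 1.42.0 and limma 3.58.1 were alternatives, and the fits were tested on simulated data. GC content, shared sequence and printed bases came from GENCODE M21 transcripts, whose build is GRCm38 (mm10). Of 19954 genes 19758 were found there by ID, and 68.0% had the same start and end. GC is that of the longest transcript, which need not be the one expressed. Shared windows were sought on either strand in all GENCODE M21 transcripts of other loci, with overlapping genes merged into a locus. The GC-adjusted fit took each library's lowess trend of log2 CPM on GC (span 0.2, prior count 2) as an offset.

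The members, the 43 lists and the tests were chosen with earlier results of these data known, and 5 lists of small or structural RNAs had no listed gene. The rule for naming genes took all mitochondrial genes, then genes past the threshold at a mean of at least 1 CPM whose sets did not overlap: the 10 largest protein-coding and 5 largest other differences in each direction, and up to 4 members a list. A list with no member past the threshold gave its 2 members of highest CPM. The text names part of these, picked with their values seen. The GC adjustment, the shared-sequence description (windows of 50, 100 and 150 bases were looked at and 50 used), the ribosomal copies, the chromosome 1 copies, Eid1 and the count of genes with at least 5 counts were added after seeing the data. Results that need items withheld for evaluation are not reported here.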

Additional observations from a re-analysis of the deposited data

Results flagged for a closer look

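In 19 of 176 groups of libraries examined, 1 library stood apart from the others of its set by Dixon's 95% criterion, which chance meets in about 1 in 20 groups. Mutant male 6 was the library in 13 of the 19, in the low set each time. It had the fewest genes with at least 1 count, 16903 against 17970 in the next. Its counted transcripts had 51.20% G and C, against 50.42% in the next, and 51.25% against 50.50% without mitochondrial genes. Genes of the highest GC group took 13.15% of its counts, against 11.14% in the next. It was lowest in mt-Nd5, at 285.1 CPM against 914.4 in the next.

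The same library was lowest in 8 nuclear genes. Among RNA processing and chromatin genes, Srsf10 stood at 109.4 CPM (next 176.8), Sf3b1 at 218.2 CPM (next 324.6) and Atrx at 85.39 CPM (next 167.4). Among cell cycle and precursor genes, Casp8ap2 stood at 34.51 CPM (next 63.13), Pola1 at 36.46 CPM (next 62.97) and Neurod4 at 25.33 CPM (next 47.50). Psmc6 stood at 66.06 CPM (next 106.1), and Trmt10c, for mitochondrial tRNA processing, at 11.99 CPM (next 18.78).

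In the high set mutant female 4 was highest in mt-Nd1, at 2398 CPM against 2085, and in mt-Nd2, at 1171 CPM against 1003, and lowest in Hist3h2ba, at 56.55 CPM against 66.43. Wildtype female 6 was lowest in mt-Co3, at 14.38 CPM against 15.82, and wildtype male 5 highest in Zfp942, at 22.66 CPM against 19.98. Wildtype female 5, the low library nearest the threshold, was highest of its set in RP23-8J15.7, at 1.626 CPM against 0.7264.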

How the results depend on the processing

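With all 12 libraries in the fit, the count of genes marked as higher (1977) stayed within 1.5 times under every alternative but 2: a replicate block gave 1296 and GC adjustment 463. Fits on part of the libraries gave 1185 in females, 490 in males and 772 in mutants, and leaving out 1 library gave 1357 to 2397. The count marked as lower (520) moved more. It was 1719 with library totals, 1185 with DESeq2, 278 with sex as a term, 866 without the genotype term, 83 with the replicate block, 140 in females, 16 in males, 235 in wildtype and 46 in mutants. Leaving out 1 library gave 92 (without mutant female 4) to 1051 (without mutant male 6). The cause of these shifts was not tested. The sample labels do not say whether the numbers 4 to 6 pair the libraries. For same-numbered pairs, correlations of deviations from the group means ran from -0.300 to 0.475 (median 0.179, 18 pairs). For other pairs they ran from -0.419 to 0.485 (median -0.0328, 36 pairs). Number and set were not balanced. Of the libraries numbered 4 only wildtype male 4 was low, and of those numbered 5 and 6 only wildtype male 5 and wildtype female 6 were high. A part of the number in the differences thus cannot be fully told apart from the set.

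Of 76 named genes, 76 kept direction and mark with limma voom, no filter and no genotype term, and 72 with library totals. The replicate block ended the mark of 17. In fits on part of the libraries, the mark was lost for 15 in females, 31 in males, 10 in wildtype and 26 in mutants. Leaving out 1 library ended the mark of 17 genes in at least 1 fit, 15 of them without mutant female 4 and 12 without mutant male 4. GC adjustment ended it for 25 and turned 4: Eif2s2 to -0.18, Tug1 to -0.093, Sf3b1 to -0.0089 and Psmc6 to -0.33. It moved the medians of 16 of 38 lists by more than their spread, and reversed 0. Mutants alone moved 16 and reversed 1, and wildtype alone moved 11 and reversed 1. Females alone moved 3 and reversed 1, and males alone moved 6 and reversed 0. The snoRNA host median was -0.20 in wildtype alone. The lens median (0.62) was -2.58 in females, -1.37 in mutants, -0.50 without wildtype male 5 and 1.44 without mutant female 4. Another mt-Nd6 threshold between 48.37 and 372.9 CPM gives the same sets and was not run. Genes at 0 to 4 reads in the low set, such as mt-Nd3 and Znf41-ps, have no reliable fold at this depth.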
